A study of Mus musculus with 2 samples.

Results

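The Ms4a family encodes small proteins that cross the cell membrane several times and sit in receptor complexes of leukocytes. Its best known member, Ms4a1, encodes the B cell protein CD20, and Ms4a2 encodes the β chain of the high-affinity IgE receptor of mast cells and basophils. Several others, such as Ms4a6b, Ms4a6c, Ms4a6d and Ms4a7, are known from monocytes and macrophages, and the human MS4A locus is linked to the risk of Alzheimer's disease, which drew attention to the family in microglia. The 9 genes described here (Ms4a1, Ms4a2, Ms4a4b, Ms4a4c, Ms4a4d, Ms4a6b, Ms4a6c, Ms4a6d and Ms4a7) were chosen by gene symbol among 19938 genes, with their log2 values in both media already known. All 9 were found, each with 1 transcript cluster, which is the group of probes that stands for a gene on the array. The choice used the level in each medium and the difference, so these values are a description.

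The cells were BV-2 (also written BV2), an immortalized line derived from mouse microglia, the macrophages that reside in the brain. They were cultured in DMEM, a standard medium, or in DMEM/F12, a richer medium that adds nucleic acid precursors, vitamins, amino acids and metal ions. According to the methods, all cells were plated in DMEM/F12 and then either moved to DMEM or given DMEM/F12 again for 1 d, with fetal bovine serum in both media, whereas the labels give an incubation of more than 1 day. For each medium, 1 culture gave the RNA for 1 array (Affymetrix Mouse Gene 1.0 ST), so there are no replicates, no test was possible, and each difference is between these 2 arrays only.

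All values are log2 expression values as deposited, and a difference is DMEM/F12 less DMEM, so that a negative difference means a lower value in the richer medium. Background was taken from the 1248 clusters that measure receptor genes of smell, pheromone and taste cells, called sensory receptor clusters here. Their median was 2.41 in DMEM and 2.42 in DMEM/F12, and a gene counted as above background when it passed their 95th percentile, at 4.15 in DMEM and 4.17 in DMEM/F12. As a check of the cell type, 10 of 12 measured microglia markers were above background on both arrays, a cut that 64.5% of all named genes passed in DMEM and 64.7% in DMEM/F12. Markers of other cell types passed it in part too, so it shows only that these genes gave signal. The microglia markers above background included Csf1r, the receptor that keeps microglia alive (8.79 in DMEM and 8.47 in DMEM/F12), and Itgam, which encodes CD11b (7.79 and 7.80). The transcription factor gene Spi1 (10.34 and 10.30) and the lysosomal gene Cd68 (11.10 and 11.21) were among them too. The exceptions were Aif1, which encodes the microglial marker IBA1 (3.53 and 3.14), and the purinergic receptor gene P2ry12 (2.79 and 2.79), both below background in each medium.

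Of the 9 members, 8 were below background in both media, and Ms4a6d was the only member past 1.5-fold. In DMEM 1 of the 9 members was above background, compared with 64.5% of all named genes. In DMEM/F12 none of the 9 was above background, compared with 64.7% of all named genes. Over the 9 members the values ran from 1.90 to 4.71 in DMEM and from 1.95 to 4.06 in DMEM/F12. The median member lay at 2.47 and 2.46, close to the median of the sensory receptor clusters, and 4 members in DMEM and 3 in DMEM/F12 were below that receptor median.

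The median difference of the 9 members was -0.01 (between -0.03 and 0.02 under other scalings), beside 0.00 for all named genes, with 4 members higher and 5 lower in DMEM/F12. Only Ms4a6d was at least 1.5-fold lower, where 0.727% of all named genes were. No member was at least 1.5-fold higher, where 0.928% of all named genes were. Without Ms4a6d the 8 other members had a median difference of 0.01. Leaving out Ms4a6c as well, the remaining 7 lay between -0.19 and 0.34.

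**Figure D1:**
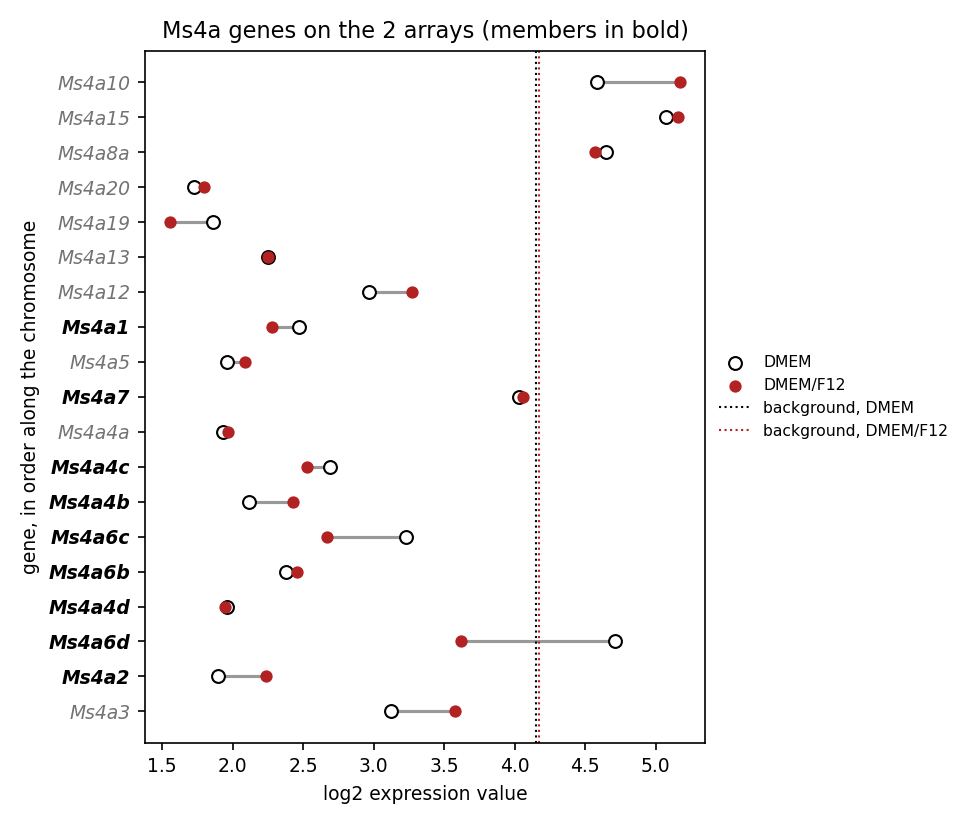
Log2 expression value (x axis) of the 19 measured Ms4a genes (y axis, in their order along chromosome 19, the 9 members in bold) in DMEM (open) and in DMEM/F12 (red), joined by a line for each gene, with dotted lines at background. Ms4a6d is the only gene whose line crosses background, from 4.71 in DMEM to 3.62 in DMEM/F12.

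Ms4a6d belongs to the Ms4a6 group of macrophage genes, and it is among the genes that the study picked from these same arrays. Its value was 4.71 in DMEM but 3.62 in DMEM/F12, which is a difference of -1.09 or 2.13-fold lower in DMEM/F12. The DMEM value lay 0.56 above background, and the DMEM/F12 value was below it (a gap of -0.55). The gene was therefore measured above background on 1 array only, and with the DMEM/F12 value raised to background the difference is -0.54. Among all 19938 genes it had the third lowest difference. In a culture measured as a whole, fewer cells that use a gene and less of its RNA per cell cannot be told apart.

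The sensory receptor clusters show how far dim clusters differed between the arrays. Their differences ran from -0.91 to 1.01, with the central 95% between -0.54 and 0.58, and none of the 1248 was as low as Ms4a6d. The 61 receptor clusters that were above background in DMEM, as Ms4a6d was, had differences from -0.75 to 0.72. This spread is over different clusters of the same arrays, not over replicate cultures. Ms4a6d is set beside it because its difference was already known to be extreme, so lying outside the spread is no test.

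The 3 genes whose pair of values lay nearest to that of Ms4a6d, by Euclidean distance over the 2 arrays, were Phf11a, Cxcr2 and Cd36. Phf11a, a PHD finger gene that the study also picked from these arrays, had 4.70 in DMEM and 3.56 in DMEM/F12 at a distance of 0.06. Cxcr2, a receptor for neutrophil chemokines, had 4.56 and 3.80 at a distance of 0.23, and the scavenger receptor gene Cd36 had 4.48 and 3.67 at a distance of 0.24. Likeness over 2 arrays is a weak measure, since each gene contributes only 2 values.

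Ms4a6c, a gene known from monocytes and also of the Ms4a6 group, had the next largest difference. Its value was 3.23 in DMEM but 2.67 in DMEM/F12, which is a difference of -0.56 or 1.47-fold, just under the 1.5-fold threshold. Both values were below background, with a gap of -0.92 in DMEM and a larger one in DMEM/F12. Of the 1248 receptor clusters, taken at any level, 30 had a difference as low or lower, so such a difference also occurred among sensory receptor genes. Ms4a6b, the third gene of the group, had 2.38 in DMEM and 2.46 in DMEM/F12. Its difference of 0.08 has the opposite sign, at values below background on both arrays.

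Ms4a7, a marker of macrophages at the borders of the brain, had 4.03 in DMEM and 4.06 in DMEM/F12. These values are just under background on both arrays, with gaps of -0.12 and -0.11, and the difference was 0.03. About as many receptor clusters were dimmer than Ms4a7 in DMEM (93.8%) as in DMEM/F12 (93.7%).

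The Ms4a4 genes were all below background. Ms4a4b, which is known from T cells, was at 2.12 in DMEM and at 2.43 in DMEM/F12 (difference 0.31). Ms4a4c, which is induced by interferon in leukocytes, was at 2.69 and 2.53 (difference -0.16). Ms4a4d had 1.96 and 1.95, a difference of -0.01 whose sign changed under another scaling. The 3 differences did not share a sign, and 171 of the 1248 receptor clusters had a difference as high as that of Ms4a4b or higher.

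The genes that name the family in other cell types were below background too. Ms4a1, the gene of CD20, was at 2.47 in DMEM and at 2.28 in DMEM/F12 (difference -0.19). Ms4a2, the gene of the IgE receptor β chain, had 1.90 and 2.24, and its difference of 0.34 was the highest among the members. Of the receptor clusters, 144 had a difference as high or higher.

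**Figure D2:**
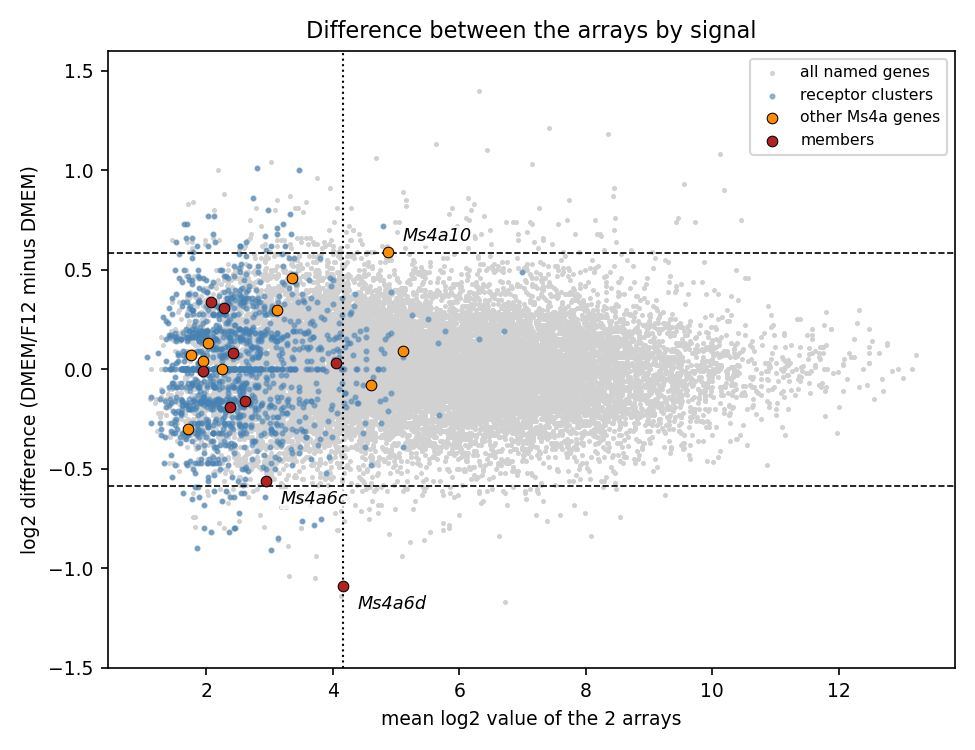
Difference between the arrays on the log2 scale (y axis, positive where DMEM/F12 is higher) plotted over the mean log2 value (x axis), with all named genes in gray, sensory receptor clusters in blue, the 9 members in red and the 10 other Ms4a genes in orange. Dashed lines mark 1.5-fold and the dotted line the mean of the 2 background levels; most members lie within the cloud of receptor clusters, and Ms4a6d lies below it at -1.09.

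RefSeq (GRCm38.p6) places 21 Ms4a genes in 1 block on chromosome 19, with 1 other protein-coding gene (Gm8369) between them. A single-gene cluster was found for 19 of the 21, and Ms4a14 and Ms4a18 were not analysed. The members lie in the later part of the block, from Ms4a1 to Ms4a2. Ms4a6d sits between Ms4a4d and Ms4a2, which were below background on both arrays and had differences of -0.01 and 0.34.

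The other 10 measured Ms4a genes had a median difference of 0.08, with 7 higher, 2 lower and 1 equal. Of all named genes 47.2% were higher and 45.5% lower. Of the 10 genes, 3 were above background on both arrays, beside 64.5% of all named genes in DMEM and 64.7% in DMEM/F12. These 3 lie together at the start of the block, and the rest of the 10 were below background on both arrays. Ms4a10 was at 4.58 in DMEM and at 5.17 in DMEM/F12, which differ by 0.59 or 1.51-fold, just past 1.5-fold. Among all receptor clusters, most of them dimmer than Ms4a10, 29 had a difference as high or higher. Of the 61 receptor clusters above background in DMEM, 1 was at least 1.5-fold higher. Once each array was centred on its median (4.75 in DMEM and 4.77 in DMEM/F12), Ms4a10 fell just under 1.5-fold. Ms4a15 had 5.07 and 5.16, and Ms4a8a had 4.65 and 4.57, so these 2 genes differed by 0.09 and -0.08. Ms4a3, known from progenitors of granulocytes and monocytes, was below background with 3.12 and 3.58. Ms4a4a, the mouse gene named like the human Alzheimer's risk gene MS4A4A, was far below background with 1.93 and 1.97. Ms4a5, Ms4a12, Ms4a13, Ms4a19 and Ms4a20 were below background on both arrays, with differences from -0.30 to 0.30.

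The promoters show how closely some members are related, and are printed because the members in each pair can be compared on the arrays. RefSeq promoter windows (250 bases before to 50 after the start, GRCm38.p6) were matched for 7 of the 9 members, with 8 windows in all. Ms4a1 and Ms4a6d have no entry. Among 27 pairs of windows from different genes, 2 pairs of neighbouring genes aligned over most of their length, and no other pair aligned over more than 45 bases. The windows of Ms4a6c (chr19:11469118-11469417, plus strand) and Ms4a6b (chr19:11518309-11518608, plus strand) matched at 194 of 218 aligned bases (89.0%). The windows of Ms4a4c (chr19:11407411-11407710, plus strand) and Ms4a4b (chr19:11443308-11443607, plus strand) matched at 233 of 279 aligned bases (83.5%). Capitals mark the longest run shared by both genes of a pair, 48 bases in the Ms4a6 pair and 20 bases in the Ms4a4 pair.
Ms4a6c: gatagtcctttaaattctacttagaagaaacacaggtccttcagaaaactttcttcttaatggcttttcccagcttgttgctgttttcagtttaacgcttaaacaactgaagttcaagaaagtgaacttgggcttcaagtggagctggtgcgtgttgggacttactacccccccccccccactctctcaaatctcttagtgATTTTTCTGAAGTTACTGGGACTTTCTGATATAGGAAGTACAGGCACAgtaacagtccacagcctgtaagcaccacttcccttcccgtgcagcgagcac
Ms4a6b: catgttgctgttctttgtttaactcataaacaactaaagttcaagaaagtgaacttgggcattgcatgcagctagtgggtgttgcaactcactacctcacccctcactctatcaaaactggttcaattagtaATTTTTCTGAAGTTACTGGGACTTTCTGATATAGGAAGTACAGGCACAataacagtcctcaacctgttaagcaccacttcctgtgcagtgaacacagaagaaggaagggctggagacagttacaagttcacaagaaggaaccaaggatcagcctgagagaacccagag
Ms4a4c: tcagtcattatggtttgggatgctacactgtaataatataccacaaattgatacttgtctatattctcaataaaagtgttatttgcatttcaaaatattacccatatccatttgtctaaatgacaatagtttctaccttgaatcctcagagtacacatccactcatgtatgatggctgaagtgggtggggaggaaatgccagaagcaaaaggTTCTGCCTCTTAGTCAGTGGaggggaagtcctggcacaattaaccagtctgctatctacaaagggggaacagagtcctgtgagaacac
Ms4a4b: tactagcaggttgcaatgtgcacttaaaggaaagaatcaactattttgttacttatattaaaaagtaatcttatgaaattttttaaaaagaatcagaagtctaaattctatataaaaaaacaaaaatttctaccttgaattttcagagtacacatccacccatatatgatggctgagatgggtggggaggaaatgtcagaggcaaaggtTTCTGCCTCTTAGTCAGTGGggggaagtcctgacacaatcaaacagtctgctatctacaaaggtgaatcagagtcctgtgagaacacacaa

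The 48 shared bases of Ms4a6c and Ms4a6b hold the letters AGGAAGT, a core that binds factors of the ETS family such as PU.1, the product of Spi1. This motif was chosen after the sequences were read and was searched on both strands. It was found in the windows of these 2 members and in no other member window, while 9.35% of all 32851 promoter windows hold it. Because it was read from bases that both windows share, its presence in both was fixed in advance. The 2 related windows are also not independent, so their number cannot be judged against that share. The Ms4a6b window holds a further match on the opposite strand, outside the shared bases, which the Ms4a6c window lacks. In both related pairs the differences had opposite signs on the arrays, with -0.56 for Ms4a6c beside 0.08 for Ms4a6b and -0.16 for Ms4a4c beside 0.31 for Ms4a4b. All 4 genes were below background, so these signs are not calls.

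Genes whose products work with Ms4a proteins were present on both arrays in part. In the list of the IgE receptor and its signalling, 10 of 11 measured genes were above background, beside 64.5% of all named genes in DMEM. The median difference of the list was 0.17, with 9 of the 11 higher in DMEM/F12 and 2 lower, where 47.2% of all named genes were higher and 45.5% lower. Fcer1g, the signalling γ chain that microglia share with other Fc receptors, had 11.39 in DMEM and 11.40 in DMEM/F12. Fcer1a, the chain that binds IgE, was below background (2.39 and 2.11), as was the β chain gene Ms4a2. The adaptor gene Lat differed by 0.49 and Gab2 by 0.29, and no gene of the list reached 1.5-fold.

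Of the 5 genes for proteins reported as partners of MS4A proteins, 3 were above background, and the median difference was 0.04. All 5 differences were positive, where 47.2% of all named genes were higher, but those of Tnfrsf18 (0.01), Vsig4 (0.03) and Tyrobp (0.04) were close to 0, that of Tnfrsf18 turned negative once each array was centred on its median, and no gene of the list reached 1.5-fold. The fungal receptor gene Clec7a, which encodes dectin-1, had 6.06 in DMEM and 6.56 in DMEM/F12. Trem2, a lipid-sensing receptor of microglia, had 9.23 and 9.63, and its adaptor gene Tyrobp had 11.13 and 11.17. Vsig4 was below background (2.29 and 2.32). The MS4A-like relatives Tmem176a and Tmem176b were both above background and slightly lower, at 7.68 and 7.55 for Tmem176a and at 10.14 and 9.94 for Tmem176b. The differences of these relatives, -0.13 and -0.20, did not reach 1.5-fold.

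Markers of the cells in which single members are best known were above background in part, where 64.5% of all named genes were in DMEM and 64.7% in DMEM/F12. Of 8 measured B cell markers 3 were above it in each medium, and Cd79a, a chain of the B cell receptor complex, was not (2.93 and 3.09). The 3 above it were Cd79b (4.83 and 4.87), Pax5, with a difference of -0.32, and Cd22, with 0.07. Of 8 mast cell markers 3 were above background in DMEM and 1 in DMEM/F12, with Gata2 (4.59 and 4.63) above it on both arrays. Kit (3.79 and 4.06) and the mast cell protease gene Cpa3 (2.64 and 2.61) were below it on both. The lower count in DMEM/F12 rests on Hdc and Tpsb2, which differed by -0.30 and -0.12 and were both at 4.16 there, just under background at 4.17. Of 8 T cell markers 5 were above background in DMEM and 3 in DMEM/F12, a share in DMEM near that of all named genes. Those above it on both arrays were Cd28 (7.66 and 7.48), Cd5 (6.25 and 6.09) and Cd3e (4.80 and 4.98), and those above it in DMEM only were Cd8a, with a difference of -0.24, and Cd8b1, with -0.20.

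Border macrophage markers were above background for 7 of 10 genes, a share near that of all named genes, and had a median difference of 0.02. The mannose receptor gene Mrc1 differed by -0.36 and the lectin gene Clec4n by 0.56, neither past 1.5-fold. Among microglia markers Tmem119 was the only gene past 1.5-fold, at 6.71 in DMEM and at 6.05 in DMEM/F12 (difference -0.66), and Csf1r differed by -0.32. The median over the 12 markers was 0.00.

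Interferon-stimulated genes were described beside the members because Ms4a4c is known as such a gene. DMEM/F12 gave the larger value for 9 of 15 measured genes, the smaller for 4 and the same for 2. For all named genes these shares were 47.2% larger and 45.5% smaller. The median difference of the list was 0.16, beside 0.00 for all named genes. Of the 15, 9 were above background in DMEM and 10 in DMEM/F12, shares near the 64.5% and 64.7% of all named genes. Ifit2, Ifit3, Mx1, Ifih1 and Rtp4 were below it on both arrays. Oas1a, a sensor of viral RNA, was higher by 0.78, the only gene of the list past 1.5-fold, and Ifit1 was higher by 0.54 from a DMEM value below background.

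**Figure D3:**
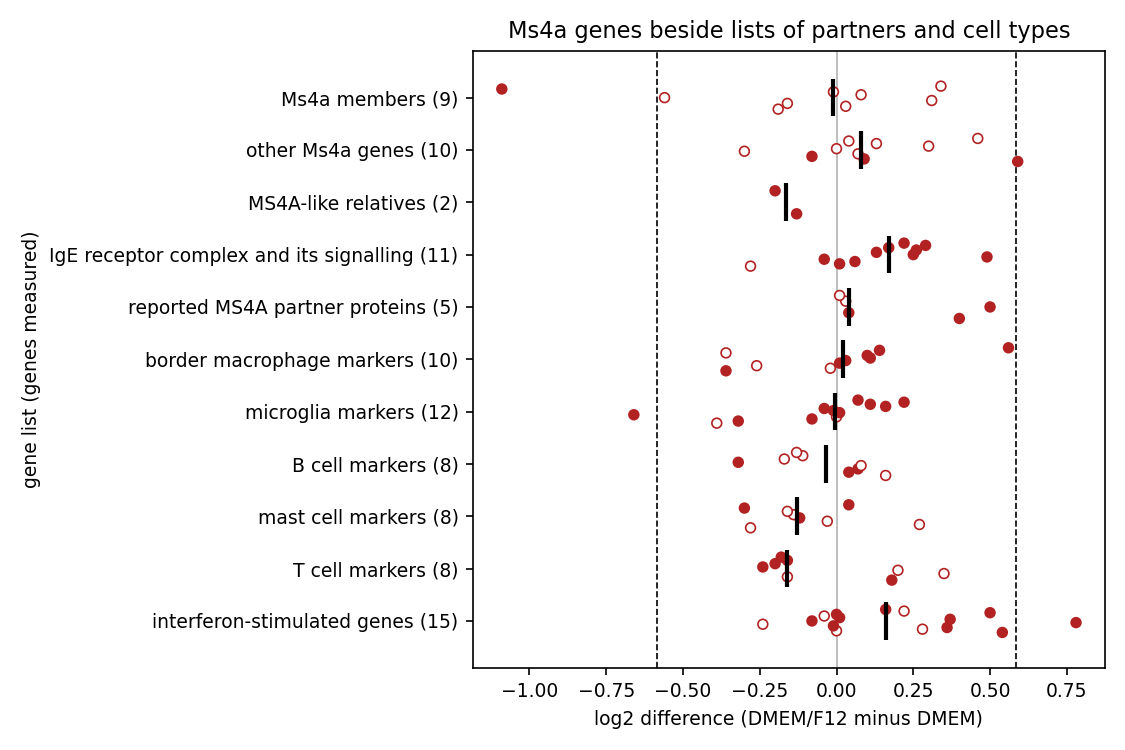
Difference between the arrays on the log2 scale (x axis, positive where DMEM/F12 is higher) for the genes among the members and in the lists (y axis, gene numbers in parentheses). Each circle is 1 gene, filled where it was above background on at least 1 array and open where it was not, black bars are medians, and dashed lines mark 1.5-fold; Ms4a6d at -1.09 is the only filled circle among the members.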

How the data were processed

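RNA of BV2 cells was measured on 1 array in DMEM and 1 in DMEM/F12, grouped by the submitters' labels. The authors deposited log2 values of 28944 transcript clusters. The submitters' processing notes name 2 programs, Transcriptome Analysis Console and Affymetrix Expression Console. How probes were summarized, how arrays were normalized, program versions and the genome build were not given in the sources used here. Precision is limited by the number of arrays, 1 per medium.

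The platform annotation gave exactly 1 symbol to 21789 clusters, which stand for 19938 genes, and several clusters of a gene were averaged. No cluster with several symbols held an Ms4a gene. The 9 members' gene numbers matched RefSeq. Probe sequences were not used here, so whether probes for 1 member also bind a close relative was not tested.

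The members and the 9 other gene lists were chosen with earlier results of these data known. No p-value was calculated. The named genes are all Ms4a genes, a fixed set of partners and markers, per list the 2 genes that differed most among those above background and any gene at least 1.5-fold apart, and the 3 genes nearest to Ms4a6d. Gm8369, Itgam, Spi1, Cd68, P2ry12, Cd28, Cd5, Tnfrsf18, Cd79b and Gata2 were added after their values were seen. Alternatives were median centring, quantile normalization, loess centring (span 0.3), values raised to background, only members above background, other background percentiles, the brightest cluster per gene, clusters with several symbols, all Ms4a genes and a 2-fold threshold. Promoters were aligned globally with free end gaps (Biopython 1.88). Python 3.11.15, numpy 2.4.6, pandas 2.3.3, statsmodels 0.14.6 and matplotlib 3.10.9 were used. The fold counts and the 3 scalings were tested on simulated data, while the promoter and gene list steps were not. The simulated noise was smaller than the spread of the sensory receptor clusters here.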

Additional observations from a re-analysis of the deposited data

How the results depend on the processing

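No paired analysis was possible because there is only 1 array of each medium. A shift over 0.1 (log2) was read as a moved value and a change over 1.5 times as a moved count. The 3 scalings shifted no member by more than 0.035, and among the members only Ms4a4d changed sign under them, as did the members' median, which lay between -0.03 and 0.02. When each value below background was set to that level, the number of members at least 1.5-fold lower went from 1 to 0, and Ms4a6d differed by -0.54. There, every member below background on both arrays takes a difference of 0.02, which is the gap between the 2 background levels. With only members above background, Ms4a6d alone is left and the median is -1.09. With all Ms4a genes, 1 gene (Ms4a10) was at least 1.5-fold higher in place of 0, a call that median centring removes. With background at the 90th percentile of the receptor clusters, 2 members were above it in DMEM and 1 in DMEM/F12, in place of 1 and 0. The member above it in DMEM/F12 was Ms4a7 (4.06, with that cut at 3.68), while Ms4a6d stayed below it at 3.62. The brightest cluster per gene and clusters with several symbols could change nothing, since each member has 1 cluster and none shares one. Signal over background is a limit beside the single array per medium, with 8 of the 9 members below it on both arrays.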
